A study of Mus musculus with 12 samples.

Results

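Muscle loses protein through a small set of ubiquitin ligases and the FoxO transcription factors that switch them on. Fbxo32 (atrogin-1) and Fbxo40 encode F-box proteins, which bring a substrate to a larger ligase complex. Trim63, Trim55 and Trim54 encode the RING-finger ligases MuRF1, MuRF2 and MuRF3 of the sarcomere. FoxO factors (Foxo1, Foxo3, Foxo4) bind the promoters of such ligases, and the kinase Akt, acting downstream of insulin and IGF1, holds FoxO proteins out of the nucleus. Klf15 encodes a zinc-finger factor that glucocorticoids induce and that drives amino acid breakdown in muscle. In the heart the same ligases turn over sarcomere proteins and restrain hypertrophic growth. The arrays measured RNA, so neither the phosphorylation of FoxO nor the activity of a ligase was seen.

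The 9 genes were chosen by name: a row of the deposited table counted for a gene where the platform annotation gave it exactly 1 symbol, and each array's gene value is the median of those rows. All 9 were measured, of 20352 genes in all, on 62 of 241576 rows, with 4 to 11 rows per gene. The hearts were those of C57BL/6J mice 12 weeks of age, with no transgene or drug named. Tissue came from the border zone beside a myocardial infarct in 6 mice, 2 weeks after surgery, and from the matching site in 6 sham-operated mice. Each RNA was hybridised to its own one-colour array, and the design text calls the samples biological replicates. The comparison asks how the border zone differed from sham tissue.

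On the log2 scale the array medians ran from 6.997 to 7.026 in sham and from 7.045 to 7.058 in infarcted arrays. Every infarcted median was thus slightly above every sham median. No 2 arrays of the 66 pairs held identical values. The tissue label matched its markers: 12 cardiomyocyte markers had a median level of 13.23 in sham hearts, near the highest value of the table (14.37). None of these 12 markers passed the test (limma), and 4 were lower and none higher at an unadjusted p under 0.05. Their mean level was nonetheless slightly lower in every infarcted array (12.83 to 12.94) than in any sham array (12.96 to 13.00). Of 10 fibroblast markers all rose, their mean level going from between 8.85 and 9.15 to between 10.39 and 10.85. Of 10 macrophage markers 8 rose (mean level 7.5 to 7.76 in sham, 8.16 to 8.59 in infarcted arrays). The macrophage marker Cd163 went the other way, by -0.41, at an unadjusted p under 0.05 only (limma, adjusted p = 0.0987). In bulk tissue, fewer cardiomyocytes and less RNA per cardiomyocyte cannot be told apart, and the part of this shift in the results for the 9 genes was not tested. Infarcted replicate 5 stood apart in adipocyte markers (7.09, against 5.03 to 5.65 in the other infarcted arrays) and skeletal muscle markers (6.29, against 5.21 to 5.39), and infarcted replicate 4 had the highest level of atrial markers (8.64).

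The border zone held less RNA for 5 of the 9 genes, and none passed in the other direction. Fbxo32, Trim63, Trim54, Foxo3 and Foxo4 fell, with linear changes from -23.3% to -38.8%, while Trim55, Foxo1, Fbxo40 and Klf15 did not pass (limma, Benjamini-Hochberg adjusted p over all genes, threshold 0.05). Over all genes, 10.2% were called lower, 10.1% higher and 20.3% in either direction. At an unadjusted p under 0.05, Klf15 joined the 5 lower genes and still no gene was higher. Sham and infarcted arrays did not overlap in 3 genes (Fbxo32, Trim54 and Foxo4), against 11.3% of all genes. The changes were moderate: the median change over all genes was -0.04, and the median size among all called genes was 0.423.

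**Figure D1:**
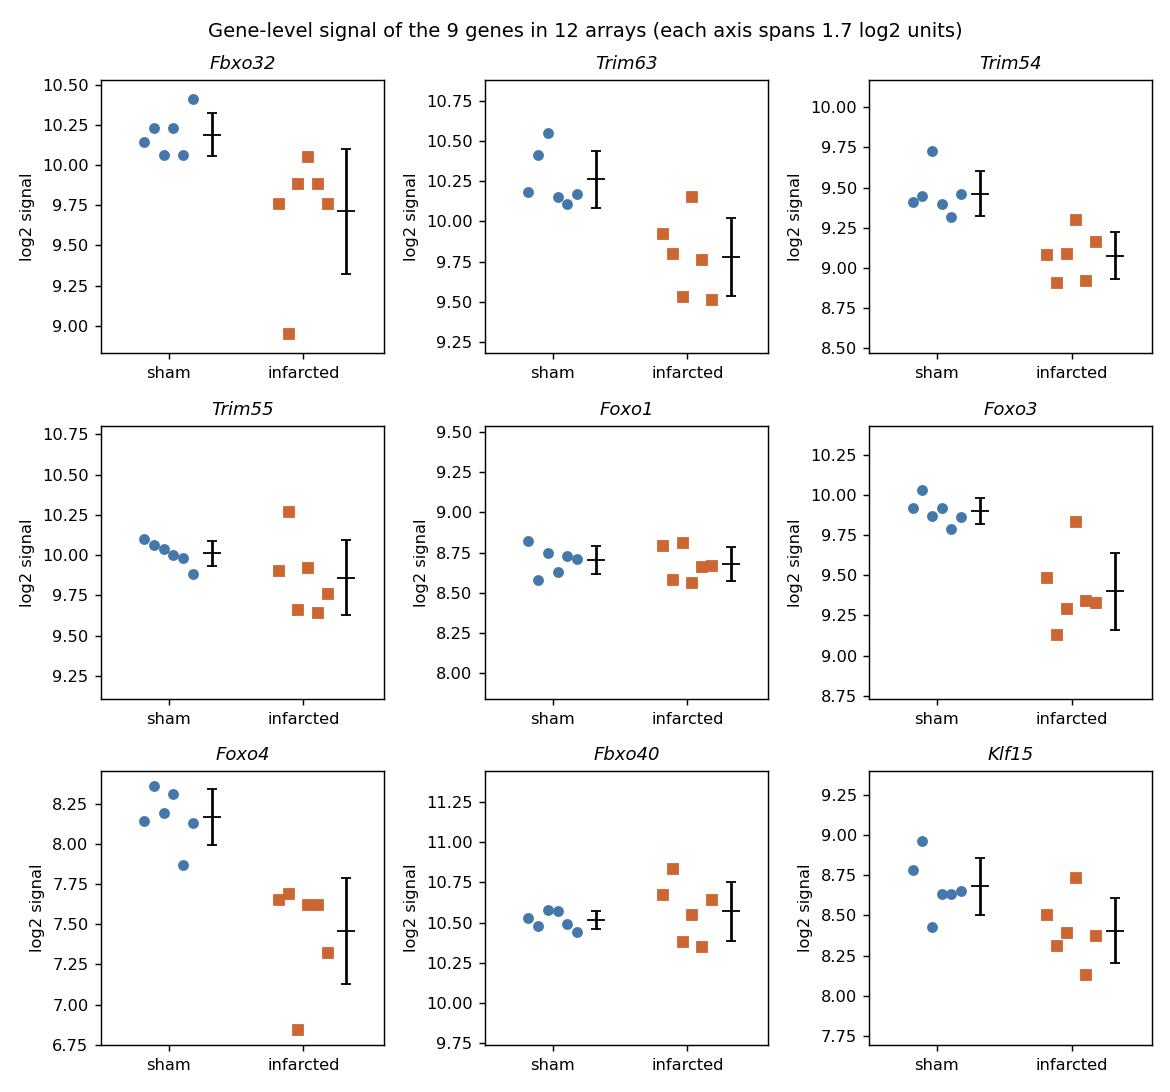
Gene-level log2 signal of the 9 genes in each of the 6 sham (circles) and 6 infarcted (squares) arrays, with the group mean and SD beside the points; every axis spans the same range. Infarcted arrays lie below all sham arrays for Fbxo32, Trim54 and Foxo4, whereas those for Foxo1 and Fbxo40 lie across the sham arrays.

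Among the F-box ligases, Fbxo32 was lower and Fbxo40 was not called. Fbxo32, whose product targets calcineurin and other growth regulators, lay between 10.06 and 10.41 in sham arrays (median 10.19) and between 8.95 and 10.05 in infarcted arrays (median 9.82). Every infarcted array was below every sham array, but only just for replicate 4 (10.05). Replicate 2 lay far below the rest, at 8.95 against 9.76 to 10.05. The mean went from 10.19 ± 0.13 to 9.71 ± 0.39 (SD, n = 6 arrays per group), a change of -0.48 (95% interval -0.80 to -0.15; 1.39-fold lower; adjusted p = 0.0366). Without infarcted replicate 2 the change was -0.32, with an adjusted p of 0.0147. The call ended when sham replicate 1, 2, 4 or 6 or infarcted replicate 1 or 6 was left out (adjusted p from 0.0533 to 0.0769). All 11 rows of Fbxo32 were lower, by 0.03 to 0.58, although a single row passed on its own.

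Fbxo40, a muscle F-box protein that targets the insulin receptor substrate IRS1, lay between 10.44 and 10.58 in sham arrays (median 10.51) and between 10.35 and 10.83 in infarcted arrays (median 10.59). Of the infarcted arrays 3 were above and 2 below the whole sham range, so they reached beyond the sham arrays on both sides. The difference was 0.05 (95% interval -0.12 to 0.23; adjusted p = 0.718), and its 4 rows differed by 0.04 to 0.11. Within arrays, Fbxo32 relative to Fbxo40 changed by -0.53, and lay under the sham mean in 6 of 6 infarcted arrays (exact permutation test, two-sided, p = 0.00866, adjusted p = 0.0253 over 7 pairs of related genes). These 7 pairs were chosen after the values were seen.

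The 3 MuRF genes separated into 2 that fell and 1 that did not pass. MuRF1 marks thick filament proteins such as myosin for the proteasome. Trim63, its gene, lay between 10.11 and 10.55 in sham arrays (median 10.18) and between 9.51 and 10.15 in infarcted arrays (median 9.78). Of the infarcted arrays 5 lay below every sham array, and only replicate 4 (10.15) reached into the sham range. The mean went from 10.26 ± 0.18 to 9.78 ± 0.24 (SD, n = 6), a change of -0.48 (95% interval -0.73 to -0.24; 1.4-fold lower; adjusted p = 0.00799). All 7 rows were lower, by 0.45 to 0.87, and 5 passed on their own.

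Trim54 encodes MuRF3, which binds microtubules and the Z-disc. It lay between 9.32 and 9.73 in sham arrays (median 9.43) and between 8.91 and 9.30 in infarcted arrays (median 9.09). The groups did not overlap, with infarcted replicate 4 (9.30) next to sham replicate 5 (9.32). The mean went from 9.46 ± 0.14 to 9.08 ± 0.15 (SD, n = 6), a change of -0.38 (95% interval -0.57 to -0.20; 1.3-fold lower; adjusted p = 0.00597). All 11 rows were lower, by 0.23 to 0.60, and 6 passed on their own.

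Trim55 encodes MuRF2, a partner of titin's kinase domain. It lay between 9.88 and 10.10 in sham arrays (median 10.02) and between 9.64 and 10.27 in infarcted arrays (median 9.83). Infarcted replicate 2 was above every sham array, and 3 infarcted arrays were below them all. The difference was -0.15 (95% interval -0.36 to 0.06; adjusted p = 0.319), and its 8 rows differed by -0.33 to -0.10. Without infarcted replicate 2 it was -0.23 with an adjusted p of 0.0429. That array is the highest infarcted one, so leaving it out must enlarge the difference, and the gain is no support for a fall. Trim55 passed in 1 of the 12 single omissions and in 0 of the 10 other settings. Relative to Trim55 in the same array, Trim63 changed by -0.33 (exact permutation p = 0.0238, adjusted p = 0.0417) and Trim54 by -0.23 (exact permutation p = 0.0974, adjusted p = 0.136). In both, all 6 infarcted arrays were below the sham mean. Trim63 relative to Trim54 differed by -0.10 (exact permutation p = 0.394, adjusted p = 0.394).

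The promoters of the MuRF genes that fell are shown because Trim63 is a known common target of FoxO factors and the glucocorticoid receptor. The windows are the 250 bases before the RefSeq start on the plus strand of GRCm38.p6, for Trim63 at chr4:134314870-134315119 and for Trim54 at chr5:31116362-31116611. Capitals mark matches, on either strand, to the FoxO motif GTAAACA, the glucocorticoid receptor core motif TGTTCT and the receptor palindrome (GAACA, any 3 bases, TGTTC).
Trim63: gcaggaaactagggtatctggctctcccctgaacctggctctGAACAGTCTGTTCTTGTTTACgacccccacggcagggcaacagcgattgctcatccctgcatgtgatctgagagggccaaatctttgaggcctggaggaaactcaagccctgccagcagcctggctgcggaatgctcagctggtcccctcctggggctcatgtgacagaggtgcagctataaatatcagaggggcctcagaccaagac
Trim54: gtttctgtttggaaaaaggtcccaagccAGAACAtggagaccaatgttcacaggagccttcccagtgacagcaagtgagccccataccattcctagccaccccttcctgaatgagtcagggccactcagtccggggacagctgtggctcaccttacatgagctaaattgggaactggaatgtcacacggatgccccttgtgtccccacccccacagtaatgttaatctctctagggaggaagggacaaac
In Trim63 the FoxO motif lay on the minus strand, from 194 to 188 bases before the start. The core motif lay directly upstream of it, from 200 to 195 bases, and overlapped the palindrome, which spans 208 to 196. Trim54 had, of these 3, the core motif alone, on the minus strand from 222 to 217 bases before the start.

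Of all 32851 promoter windows in the RefSeq table, 3.17% held the FoxO motif, 16.1% the core motif and 0.0396% the palindrome, which was added to the search after the Trim63 sequence was seen. The longer receptor motif (GGTACA, any 3 bases, TGTTCT) was in 0 of them. The KLF motif CACCC, on either strand, was in 52% of windows, among them those of Trim54 (2 matches), Klf15 and Fbxo40. Promoter windows were found for 6 of the 9 genes, and Fbxo32, Trim55 and Foxo4 had none. The FoxO motif was in the Trim63 window and not in the windows of Trim54, Foxo1, Foxo3, Fbxo40 or Klf15. The core motif was also in a window of Fbxo40, which was not called, from 176 to 171 bases before the start. It was absent from the windows of Foxo3, which fell, and of Foxo1 and Klf15. A match of letters is not evidence of binding.

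Of the FoxO factors, Foxo3 and Foxo4 fell and Foxo1 was not called. Foxo3, the factor best known for inducing Fbxo32 in wasting muscle, lay between 9.79 and 10.03 in sham arrays (median 9.89) and between 9.13 and 9.83 in infarcted arrays (median 9.34). Infarcted replicate 4 (9.83) lay within the sham range and the other 5 below it. The mean went from 9.90 ± 0.08 to 9.40 ± 0.24 (SD, n = 6), a change of -0.50 (95% interval -0.71 to -0.28; 1.41-fold lower; adjusted p = 0.00291). All 5 rows were lower, and 4 passed on their own, with changes between -0.57 and -0.49. The remaining row differed by -0.14.

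Foxo4 had the largest change among the 9 genes when the median over rows was the gene value. It lay between 7.87 and 8.36 in sham arrays (median 8.16) and between 6.84 and 7.69 in infarcted arrays (median 7.62). The groups did not overlap, and infarcted replicate 3 was the lowest at 6.84. In that array the median fell on row 10601092, whereas row 10601097, the middle row of the other infarcted arrays, read 7.66 there. With rows centred before the median, replicate 3 was at -0.24 and the other infarcted arrays between -0.26 and -0.16. The mean went from 8.17 ± 0.17 to 7.46 ± 0.33 (SD, n = 6), a change of -0.71 (95% interval -1.0 to -0.42; 1.64-fold lower; adjusted p = 0.00211). Of its 7 rows 5 passed, with changes between -0.79 and -0.43. Of the other 2, 1 was near background (3.53 in sham, differing by 0.18) and 1 differed by -0.10. With the mean over rows as the gene value the Foxo4 change was -0.43, and with each row centred before the median -0.46, both past the threshold.

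Foxo1, an insulin-responsive factor also prominent in endothelium, lay between 8.58 and 8.82 in sham arrays (median 8.72) and between 8.56 and 8.81 in infarcted arrays (median 8.66). The groups overlapped almost entirely. The difference was -0.02 (95% interval -0.17 to 0.12; adjusted p = 0.85), and 2 of its 4 rows were higher and 2 lower. Its sign turned with the mean over rows (0.12). Relative to Foxo1 within arrays, Foxo4 changed by -0.69 (exact permutation p = 0.00216, the smallest the 924 splits allow; adjusted p = 0.0152), with all 6 infarcted arrays below all sham arrays. Foxo3 changed by -0.47 relative to Foxo1 (exact permutation p = 0.0108, adjusted p = 0.0253), with 5 of 6 infarcted arrays below all sham arrays. Foxo4 relative to Foxo3 differed by -0.21 (exact permutation p = 0.21, adjusted p = 0.245). These pairs used the median over rows, so infarcted replicate 3 entered with its Foxo4 value of 6.84, taken from another row. With the mean over rows Foxo4 changed by -0.43 and Foxo3 by -0.44, and the pairs were not tested that way.

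**Figure D2:**
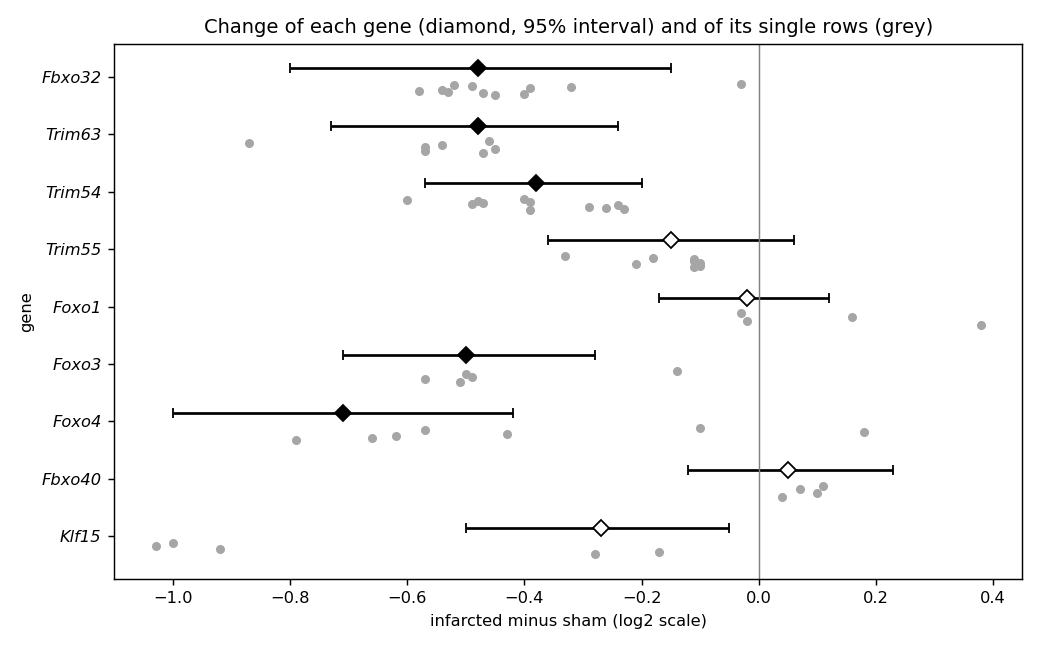
Infarcted minus sham signal on the log2 scale: diamonds with bars give the gene-level change and its 95% interval (filled where the adjusted p was under 0.05), and grey points the changes of the single rows of each gene. Rows of Trim63, Trim54 and Trim55 lie together on the negative side, while the 5 rows of Klf15 fall into a group near -1.0 and a group near -0.2.

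The result for Klf15 depended on how its rows were combined. The gene value lay between 8.43 and 8.96 in sham arrays (median 8.64) and between 8.13 and 8.73 in infarcted arrays (median 8.38). The groups overlapped, with infarcted replicate 4 (8.73) above 4 of the 6 sham arrays. The change was -0.27 (95% interval -0.50 to -0.05; adjusted p = 0.0826). Single arrays decided the call, since Klf15 passed without infarcted replicate 4 (-0.34, adjusted p = 0.0266) or without sham replicate 3 (-0.32, adjusted p = 0.0471). These are its highest infarcted and lowest sham arrays, so leaving out either must enlarge the difference, and the gain is no support for a fall. Of the 5 rows, however, 3 passed, with changes of -0.92, -1.03 and -1.0 (adjusted p over all rows 0.00747, 0.00578 and 0.00317). The other 2 differed by -0.28 and -0.17.

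The median over the 5 rows of Klf15 took its value from different rows in different arrays. Row 10540030, which differed by -0.17, was the middle one in 3 sham and 5 infarcted arrays. Row 10540033, which fell by 1.0, was the middle one in the other 3 sham arrays. With the mean over rows Klf15 changed by -0.68 (adjusted p = 0.000152), and with each row centred on its own mean before the median by -0.82 (adjusted p = 0.00064), an alternative chosen after seeing the data. The spread of the changes over its 5 rows (SD 0.42) was larger than under nearly all splits of the arrays (exact permutation p = 0.00649, chosen after seeing the data and not adjusted). The same test gave p = 0.00433 for Foxo4, 0.00649 for Fbxo32, 0.039 for Foxo3 and at least 0.141 for the other 5 genes by exact permutation. Where in the transcript each row lies is not given in the sources used here.

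**Figure D3:**
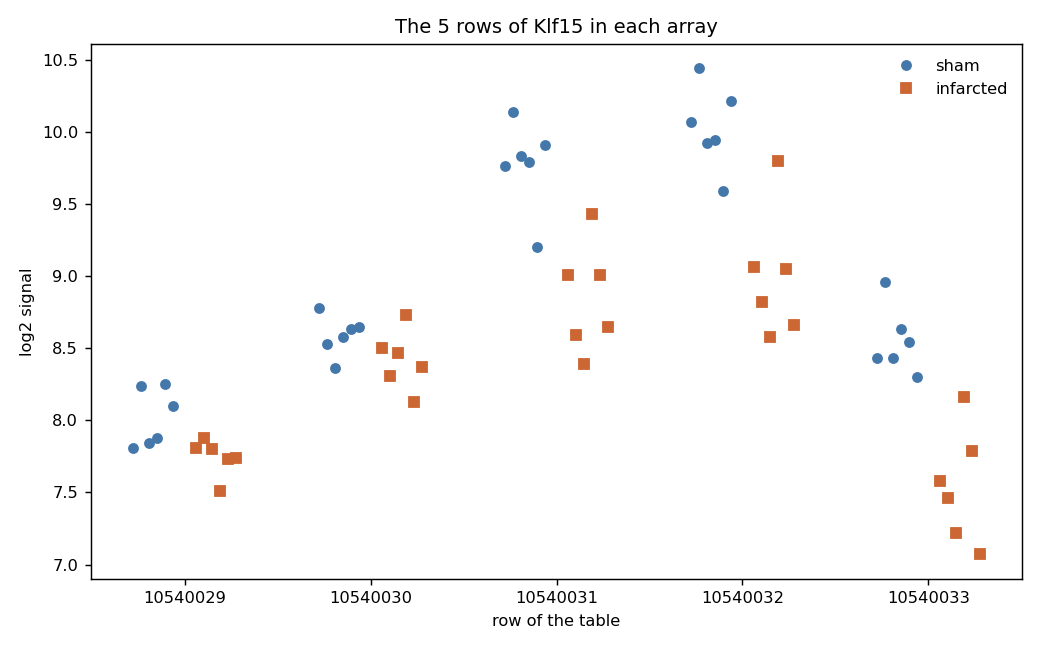
Log2 signal of the 5 rows of Klf15 in the 6 sham (circles) and 6 infarcted (squares) arrays, with row numbers on the horizontal axis. The 3 rows on the right are lower by 0.92 to 1.03 in infarcted arrays, and the 2 on the left by 0.28 and 0.17.

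Over all 62 rows of the 9 genes, 55 had a negative change. Of the 62 rows, 24 were called in either direction, all of them lower, against 10.7% of all rows called in either direction (limma over all rows). The share of all rows called lower alone is not given here. Rows of a gene were read from the same arrays and are not replicates.

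Arrays differed in how far the 9 genes moved together. The mean deviation from the sham means ranged from -0.10 to 0.08 over the sham arrays and from -0.45 to -0.13 over the infarcted ones. The -0.45 is that of infarcted replicate 3 and includes its Foxo4 value of -1.33, where the median fell on another row. Infarcted replicate 4 was the closest to sham (-0.13) and was the highest infarcted array in 5 of the 9 genes (Fbxo32, Trim63, Trim54, Foxo3 and Klf15). It was also the array with the most atrial marker signal, and the part of that in its values was not tested. Without replicate 5, which had the most adipocyte and skeletal muscle marker signal, the same 5 genes still passed. Replicate 2 combined the lowest Fbxo32 (-1.24 from the sham mean) and Foxo3 (-0.77) with the highest Trim55 (0.26) and Fbxo40 (0.31).

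**Figure D4:**
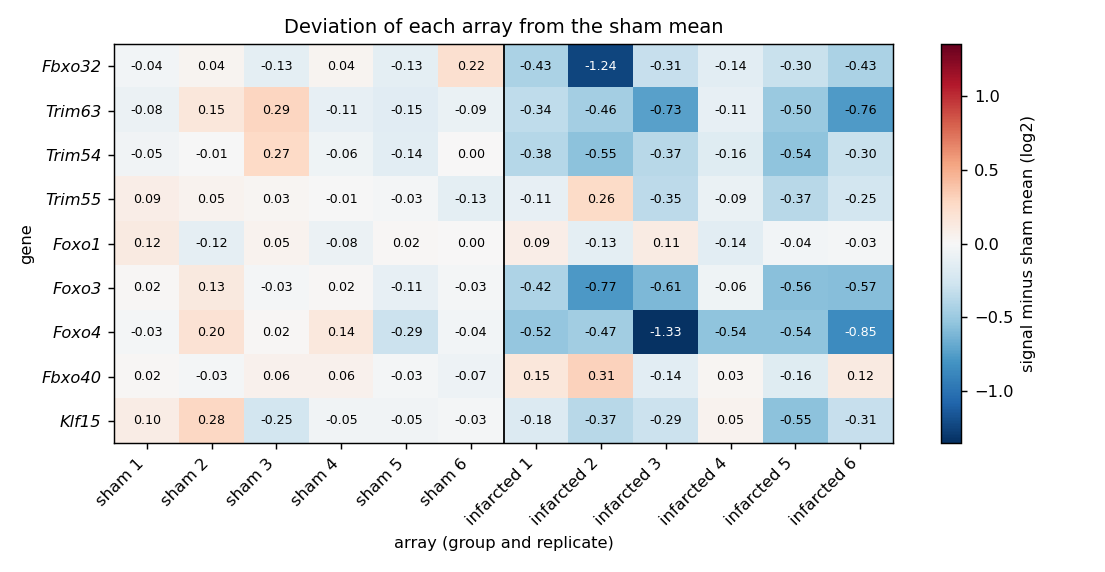
Signal of each array minus the sham mean of the gene (log2 scale, colour and printed value), with genes in rows and the 12 arrays in columns, sham on the left of the line. Infarcted replicate 4 is pale throughout except for Foxo4 (-0.54), and the largest single deviations are Foxo4 in replicate 3 (-1.33), where the median fell on another row, and Fbxo32 in replicate 2 (-1.24).

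The related lists are read against all genes, of which 10.2% were lower and 10.1% higher. Of 33 measured FoxO target genes and other genes linked to muscle atrophy (the 9 genes left out), 10 fell (30.3%), 2 rose and 21 did not pass, with a median of -0.14. Fbxo31, another F-box gene, fell by 0.93 (adjusted p = 2.04e-05), Bcl2l11, which encodes the death-promoting protein BIM, by 0.43 and Map1lc3a, an autophagosome gene, by 0.40. Tgif1, a repressor in TGF-beta signalling, rose by 0.50. Of 39 autophagy and lysosome genes 7 fell (17.9%) and 1 rose, with a median of -0.07, and the 20.5% called in either direction was close to the 20.3% of all genes. They included, beside Map1lc3a, the autophagy receptor gene Optn (-0.37) and Atg9a (-0.32). Tfe3, a factor for lysosome genes, rose by 0.23 (adjusted p = 0.0316), and missed the threshold in 8 of 12 fits that omitted an array.

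Upstream of FoxO the changes went both ways. Of 25 genes of insulin, IGF1 and Akt signalling 4 rose and 4 fell, with a median of 0.00. Igf1, the growth factor whose signal restrains FoxO, rose by 1.48 (2.78-fold, adjusted p = 4.52e-06), and Inpp5d, a lipid phosphatase gene of blood cells, by 0.56. Pik3r1, the regulatory subunit of PI3-kinase, fell by 0.71, from 11.00 ± 0.10 to 10.30 ± 0.36 (SD, n = 6). Of 29 genes for proteins that modify or bind FoxO, 3 rose (10.3%) and 4 fell (13.8%), shares near those of all genes (median -0.01). Ywhaq, a 14-3-3 protein that holds phosphorylated FoxO, rose by 0.31, Skp2, a ligase subunit for FoxO1, by 0.30, and the kinase gene Mapk14 fell by 0.29. In the myostatin and activin arm, which acts on muscle mass through SMAD factors, 7 of 21 genes rose and 1 fell (median 0.11). Fstl1 (2.29), Fbn1 (2.22) and Tgfbr1 (0.79) rose beside the fibroblast markers given above, and Bmp7 fell by 0.40, and missed the threshold in 7 of 12 such fits.

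Of 45 other ubiquitin ligase genes of muscle, 16 fell (35.6%), 1 rose and 28 did not pass, with a median of -0.12. The called genes with the smallest p were Fbxo31, given above, and Asb14 and Asb12, substrate receptors of cullin ligases in muscle, which fell by 0.85 and 0.64. Smurf2, a ligase for SMAD factors, rose by 0.36. Among 29 genes of the SCF core, the ubiquitin-conjugating enzymes and ubiquitin supply, 6 fell and none rose (1 was higher at an unadjusted p under 0.05), with a median of -0.12. Usp2, a deubiquitinase, fell by 0.64, the conjugating enzyme genes Cdc34 and Ube2b by 0.49 and 0.40. Of 39 proteasome genes 6 fell (15.4%) and none rose (none higher at an unadjusted p under 0.05), with a median of -0.15. The changes were small, for example Psmg1 (-0.32), Psmb7 (-0.31) and Psmd2 (-0.20), and the count ranged from 2 to 15 between settings. Of 5 genes of the immunoproteasome and its activator PA28, Psme1 fell by 0.27 and none rose (none higher at an unadjusted p under 0.05).

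Genes tied to Klf15 by earlier work mostly fell. Of 24 described KLF15 targets and co-factors 14 fell and 1 rose, with a median of -0.26. Gpt2, an alanine aminotransferase, fell by 1.06 (adjusted p = 8.04e-06) and Bckdha, of branched-chain amino acid breakdown, by 0.77 (adjusted p = 3.56e-06). Ccn2 (connective tissue growth factor), a gene that KLF15 represses, rose by 2.03, beside the fibroblast markers given above. A link of these changes to Klf15 was not tested. The list was drawn up with earlier results of these data known, so its count is not independent evidence. Of 22 glucocorticoid response genes 4 fell, 2 rose and 16 did not pass (median -0.15). Hsd11b1, which regenerates active glucocorticoid, fell by 0.87, the mineralocorticoid receptor gene Nr3c2 by 0.63, and Pik3r1 is also in this list. Cebpd rose by 0.56 (adjusted p = 0.0287), and missed the threshold in 5 of 12 such fits.

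Described substrates and partners of the ligases moved both ways. Of 27 genes 5 rose and 3 fell, with a median of -0.05. Myh7, the slow myosin heavy chain that MuRF1 can mark for degradation, rose by 2.77, Acta1 (skeletal actin) by 1.53 and Vim (vimentin) by 0.63, while Tcap, a Z-disc protein gene, fell by 0.79. Acta1 and Myh7 are also stress genes of cardiomyocytes, and Vim is expressed by fibroblasts.

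**Figure D5:**
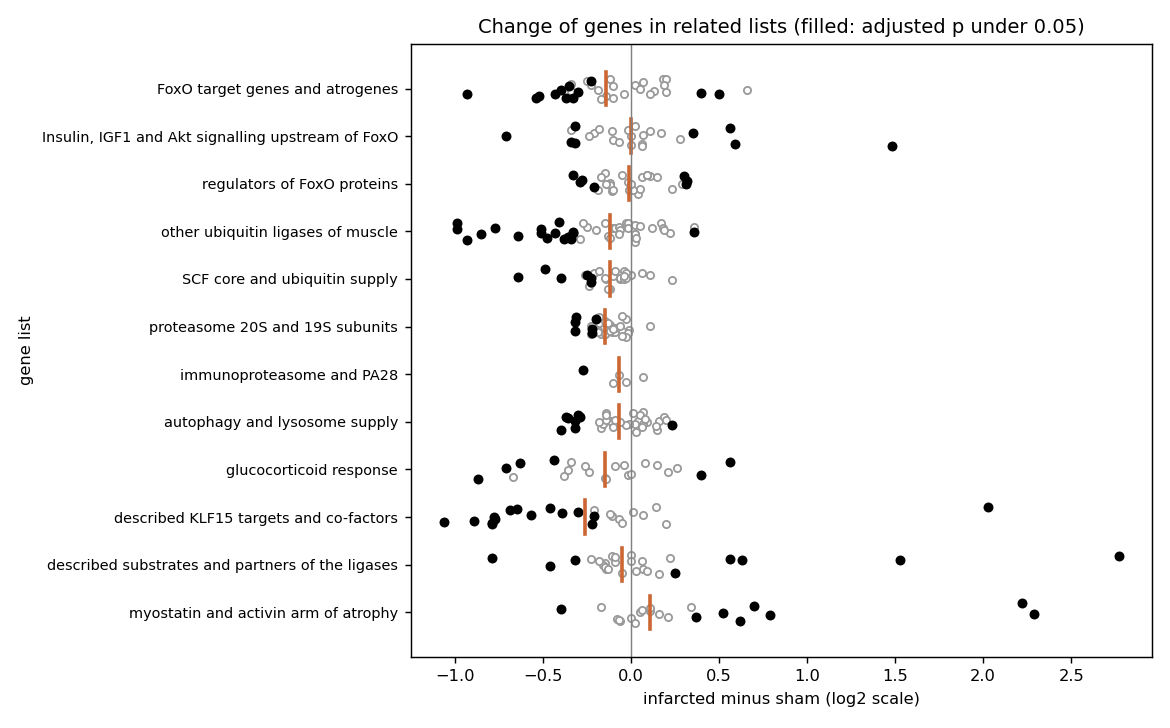
Infarcted minus sham change (log2 scale) of every measured gene in 12 related gene lists, the 9 genes left out; filled points passed the adjusted threshold and the vertical bar is the list median. The KLF15 list has the lowest median (-0.26), and the myostatin and activin list the highest (0.11).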

How the data were processed

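One array each was hybridised with RNA of 6 sham and 6 infarcted hearts. The values the authors deposited were read as log2, since they run from 1.52 to 14.37 with nearly equal array medians; no source states the base. Affymetrix Power Tools is named, per the submitters' processing notes, without a version. How rows were summarised, background-corrected and normalized is not given in the sources used here. No label gives a scan date or batch. The number of arrays limits the precision.

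Of 241576 rows, 212097 carried 1 gene symbol, 4475 several and 25004 none. Of 20416 platform symbols 2742 were updated through RefSeq synonyms, which left 20352 genes. No row was added to the 9 genes this way. Gene values (median over rows) and single rows were fitted with limma 3.58.1 in R 4.3.3 (lmFit, eBayes, two-sided) without a block, with Benjamini-Hochberg adjustment over all genes or rows. In data simulated for this comparison on 20352 genes, 93% of genes changed by 1 and 63% of those changed by 0.5 were recovered, and 10 of 20152 unchanged genes were called. Exact permutation tests enumerated 924 splits of the arrays. Promoter sequences are those of RefSeq (GRCm38.p6).

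The 9 genes were named whatever their result. From each related list the text takes at most 3 called genes, ranked by p, and the top called gene of the opposite direction. The 9 genes and the lists were chosen with earlier results of these data known. Alternatives were the mean over rows, omission of dim rows or genes, centring, quantile normalization, a trended robust prior, array weights, a replicate block and omission of arrays. Rows centred before the median, the comparisons of gene pairs, the test of spread over rows and the receptor palindrome were added after seeing the data. limma's diffSplice was first tried for unequal change of rows. It called too many unchanged genes in simulated data and is not reported, and the test of spread over rows was chosen after its result was known. A setting that omitted 1 array of each group, picked from the values of the 9 genes, was also run and dropped, because arrays must not be chosen by the outcome. Replicate numbers do not pair the hearts by any label. Figures were drawn with matplotlib 3.10.9.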

Additional observations from a re-analysis of the deposited data

Results flagged for a closer look

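In 2 of the 18 groups of 6 arrays examined for the 9 genes, a single array lay apart from the rest, its gap to the nearest array being more than 0.625 of the group's range. Chance flags about 1 group in 20. Fbxo32 was 8.95 in infarcted replicate 2, against 9.76 to 10.05 in the other infarcted arrays. Trim54 was 9.73 in sham replicate 3, against 9.32 to 9.46 in the other sham arrays.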

How the results depend on the processing

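The count of the 9 genes called lower was 5, and lay between 4 and 6 when each of the 12 arrays was omitted in turn and in the 10 other settings; the count called higher was 0 in all of them. Trim63, Trim54, Foxo3 and Foxo4 passed in all 22. Fbxo32 (-0.48) missed the threshold in 6 of the 12 single omissions and with the replicate block (adjusted p = 0.051). The sign of Foxo1 (-0.02) turned with the mean over rows (0.12), with rows centred before the median (0.03, chosen after seeing the data) and without infarcted replicates 4 and 5 (0.01); the cause was not tested. Klf15 (-0.27) passed in 3 of the 10 other settings, among them centring of the arrays (-0.32, adjusted p = 0.0404), and without sham replicate 3 (-0.32, adjusted p = 0.0471) or infarcted replicate 4.

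Over all genes, 2050 were higher and 2074 lower. With arrays centred on their medians the split was 1748 and 2956, and with quantile normalization 1815 and 2653. Deviations of same-numbered hearts correlated at -0.05 to 0.10, with the own number the best match in 2 of 6. The replicate block gave 1946 higher and 1856 lower genes, and 4 of the 9 genes lower.

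Some list counts moved by over 1.5 times. Lower counts were 6 for the proteasome (2 to 15 over all settings, 11 without infarcted replicate 2), 6 for the SCF core (up to 10), 7 for autophagy (4 without sham replicate 1, 2 or 4 or infarcted replicate 6, up to 12), 4 for FoxO regulators (2 without sham replicate 4, 0 without infarcted replicates 4 and 5), 3 for ligase substrates (1 without sham replicate 1 or infarcted replicate 5 or 6, up to 9), 4 for insulin signalling (up to 7) and 4 for glucocorticoid response (8 without infarcted replicates 4 and 5). Higher counts reached 8 for FoxO regulators (3) and 6 for other ligases (1), and ranged from 1 to 4 for FoxO targets (2), 0 to 3 for glucocorticoid response (2) and 0 to 3 for autophagy (1). Without 1 array they fell to 0 for glucocorticoid response (sham replicate 1 or 6, infarcted replicate 4 or 5) and for autophagy (sham replicate 1, 2, 3 or 5, infarcted replicate 1, 2, 3 or 6). The counts of 0 or 1 in the SCF, immunoproteasome and myostatin lists reached at most 2.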
